A study of Mus musculus with 33 samples.

Results

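Inbred C57BL/6 mice are not one uniform stock, because colonies kept apart fix or lose variants of their own. The 5 genes described here, Ide, Fgfbp3, Entpd4, Wdfy1 and Nnt, were taken as a fixed list of symbols whose DNA or expression is known to vary among C57BL/6 substrains or colonies. The list was chosen with earlier results of these data known. All 5 were found among the 24053 genes of the count table, and all 5 had enough reads to be tested. They were compared between germ-free (GF) mice and mice with a conventional origin, within saline and within morphine treatment.

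The measurements were polyA RNA-seq read counts from the nucleus accumbens, a ventral striatal region of the reward system, of 33 C57BL/6J mice. Conventional mice were bought from Jackson Laboratories at 7-9 weeks of age and drank either plain water (H2O) or an antibiotic cocktail (Abx) of vancomycin, bacitracin, neomycin and pimaricin that was begun before the drug. GF mice were age-matched C57BL/6J animals bred at the institution's own facility and kept in isolators. Each state was split into daily saline or morphine at 20 mg/kg for 7 days, giving 6 libraries of each state under saline and 5 of each under morphine, hence 22 conventional and 11 GF libraries. The label C57BL/6J is the same in all groups, but every GF mouse came from the in-house colony and every conventional mouse from the supplier. Germ-free status and colony of origin therefore cannot be told apart anywhere in these data, and neither can the housing or the facility. The H2O and Abx groups shared the supplier, so a difference between those groups is not one of that kind, although conventional mice of the same supplier can still differ from one another. The labels give no cage number, litter, sequencing date or genotype, so p-values measure the spread between these mice only.

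Each of the 5 genes has a distinct function. Ide encodes the insulin-degrading enzyme, a zinc protease that cuts insulin, amylin and other small peptides, and Fgfbp3 encodes a secreted protein that binds fibroblast growth factors and carries them from the matrix. Both lie on chromosome 19, and a gain of copies across this stretch has been described as segregating in C57BL/6J colonies. Entpd4 encodes a nucleotidase of the Golgi and lysosomal membranes, and Wdfy1 an endosomal protein with a FYVE domain that binds a phosphoinositide and has been linked to Toll-like receptor signalling. Nnt encodes the nicotinamide nucleotide transhydrogenase of the inner mitochondrial membrane, which makes NADPH for peroxide removal. C57BL/6J mice carry a deletion of several Nnt exons that C57BL/6N mice lack. Counts summed over a gene cannot show copy number, exon deletions or alleles, and none of these was measured here.

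Depth differed with GF status. The 22 conventional libraries held 9.36 to 15.3 M reads in genes (M for mega), and 10 of the 11 GF libraries held 4.87 to 8.13 M, while GF saline replicate 1 held 15.3 M. Levels are given as CPM, the count of a gene per fixed total of reads, after scaling of the libraries by the trimmed mean of M-values. A gene was called where edgeR's quasi-likelihood test gave a Benjamini-Hochberg adjusted p under 0.05 over the 14602 genes tested. Medium spiny neuron markers, the dopamine receptors Drd1a and Drd2 among them, were above 0 in every library. Markers of neighbouring tissue also differed between groups: the summed CPM of 7 cortical-type markers had a median of 285 in H2O saline, 328 in Abx saline and 14.4 in GF saline, and of 83.8, 659 and 10.4 in the corresponding morphine groups. The summed CPM of 6 pituitary markers went the other way, with medians of 3.03, 2.397 and 12.5 under saline and 2.27, 2.30 and 7.96 under morphine in H2O, Abx and GF mice. That of 8 hypothalamic markers had medians of 19.0, 18.3 and 33.4 under saline and 27.4, 17.1 and 54.6 under morphine, with ranges that overlapped between the groups. Pituitary markers were not a covariate in any fit, so their part in the results was not tested. In a piece of tissue, fewer cells of a type and less RNA per cell cannot be told apart.

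Ide was lower in GF than in conventional mice under both treatments. In H2O saline mice its level ran from 64.3 to 102.7 CPM with a median of 84.0, and in Abx saline mice from 76.6 to 101.9 with a median of 93.3. In GF saline mice it ran from 47.5 to 54.4 CPM with a median of 51.3. All 6 GF saline libraries were thus below all 12 conventional saline libraries. Such a separation towards lower levels in GF was seen for 1.53% of the genes tested.

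Under morphine, Ide measured 50.7, 95.0, 106.0, 76.1 and 107.9 CPM in H2O mice and 90.0, 84.9, 92.1, 71.7 and 97.5 CPM in Abx mice. GF morphine mice gave 46.1, 49.8, 48.6, 47.5 and 46.8 CPM. The GF and conventional morphine libraries again did not overlap, which held for 1.37% of genes in that direction. Across both treatments 21 of the 22 conventional libraries exceeded every GF library. The exception was H2O morphine replicate 2, which at 50.7 CPM lay inside the GF range of 46.1 to 54.4 CPM.

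The fitted difference of GF from conventional mice for Ide was a log2 fold change of -0.77 ± 0.12 (SE, adjusted p = 1.12e-05) under saline and -0.87 ± 0.13 (SE, adjusted p = 2.59e-05) under morphine. By p-value Ide stood at rank 212 and rank 61 of the 14602 genes in these comparisons. Against H2O mice alone, under morphine, it stood at rank 22, with a log2 fold change of -0.87 ± 0.14 (SE, adjusted p = 0.000531). Its rank was 403 against H2O under saline, 113 against Abx under saline and 253 against Abx under morphine. Antibiotics left no called difference in Ide, at 0.10 ± 0.13 (SE) under saline and -0.00 ± 0.14 (SE) under morphine. The group means ordered as Abx saline (90.6 ± 10.1 CPM, SD, n = 6), Abx morphine (87.2 ± 9.80, n = 5), H2O morphine (87.1 ± 24.0, n = 5), H2O saline (84.5 ± 16.4, n = 6), GF saline (51.4 ± 2.79, n = 6) and GF morphine (47.8 ± 1.46, n = 5). Neighbours in this order overlapped except at the step from the conventional to the GF groups, where H2O saline and GF saline were separate.

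**Figure D1:**
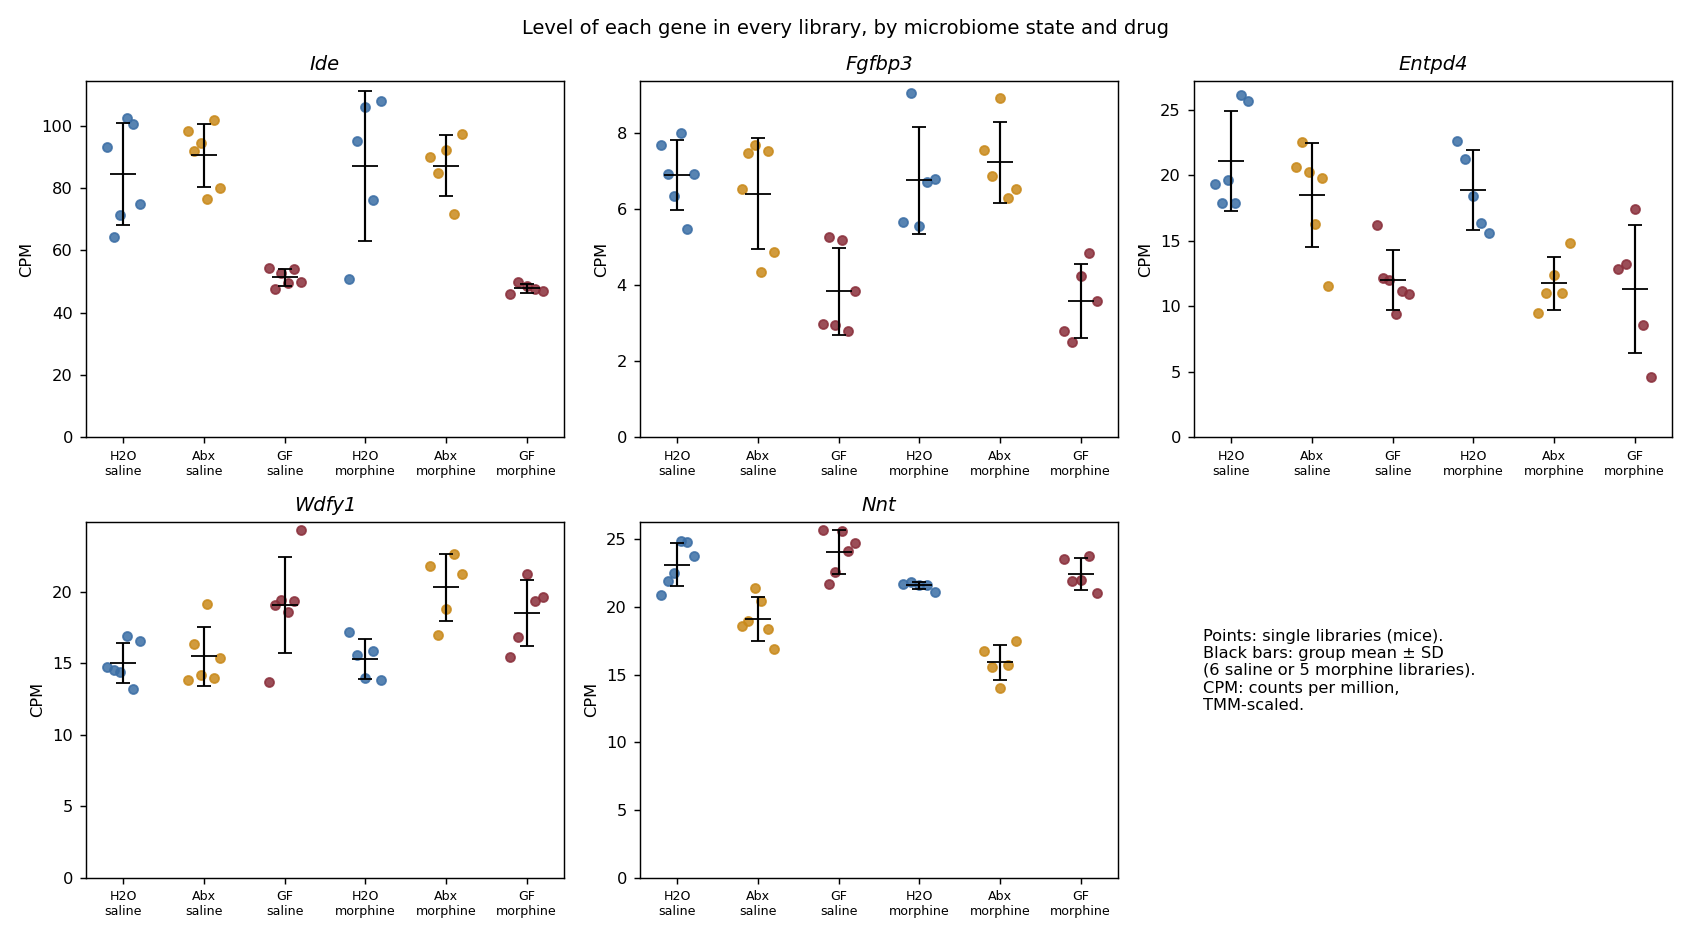
Level of Ide, Fgfbp3, Entpd4, Wdfy1 and Nnt (CPM, linear axes from 0) in each library of the 6 groups, with black bars for group mean ± SD. GF libraries are low and tightly grouped for Ide, between 46.1 and 54.4 CPM, whereas conventional libraries range from 50.7 to 107.9 CPM, and Nnt is lowest in the Abx groups.

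The spread of Ide between mice of one group also differed between GF and conventional libraries. In GF mice the within-group SD of log2 CPM was 0.0654, and 0.596% of tested genes varied less, against a median SD of 0.231 over all tested genes. In conventional mice the SD was 0.287 where the median gene had 0.149, and 80.03% of genes varied less. The conventional groups were not alike in this. As a percentage of the group mean, the SD of CPM was 19.4% in H2O saline and 27.5% in H2O morphine mice. It was 11.2% in both Abx groups, and 5.44% and 3.06% in GF saline and GF morphine mice. Expressed against the GF mean, Ide in single conventional libraries ranged from 1.02 in H2O morphine replicate 2 through 1.29 in H2O saline replicate 4 to 2.17 in H2O morphine replicate 6. The other 4 genes did not have this combination: Fgfbp3 had SDs of 0.389 in GF and 0.262 in conventional mice, Entpd4 0.521 and 0.273, Wdfy1 0.231 and 0.155, and Nnt 0.0888 and 0.100. The difference in spread itself was not tested. SD of log2 CPM also depends on the number of reads of a gene, and neither the ranks nor the comparison of the 5 genes was matched for it.

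Fgfbp3, which lies in the same stretch of chromosome 19 as Ide, was lower in GF mice by a similar amount. Its counts were low, at 14 to 121 reads in a library, so single values carry a large counting error. In H2O saline it ran from 5.49 to 8.02 CPM with a median of 6.93, in Abx saline from 4.36 to 7.69 with a median of 7.02, and in GF saline from 2.79 to 5.26 with a median of 3.41. Of the 6 GF saline libraries 4 were below every conventional saline library. Under morphine the values were 5.7, 9.1, 5.6, 6.7 and 6.8 CPM in H2O mice, 7.6, 6.9, 8.9, 6.3 and 6.5 in Abx mice, and 2.8, 2.5, 4.3, 4.8 and 3.6 in GF mice. All 5 GF morphine libraries were below all 10 conventional ones, as were 1.37% of tested genes.

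The log2 fold change of Fgfbp3 was -0.80 ± 0.16 (SE, adjusted p = 0.000336) under saline and -0.96 ± 0.18 (SE, adjusted p = 0.000473) under morphine. It was called lower in GF against H2O and against Abx in each treatment, from -0.74 ± 0.18 (SE) against Abx under saline to -1.01 ± 0.20 (SE) against Abx under morphine. Antibiotics alone gave -0.11 ± 0.16 (SE) under saline and 0.10 ± 0.18 (SE) under morphine, neither of them called. Group means ordered as Abx morphine (7.24 ± 1.07 CPM, SD, n = 5), H2O saline (6.91 ± 0.915, n = 6), H2O morphine (6.76 ± 1.40, n = 5), Abx saline (6.41 ± 1.46, n = 6), GF saline (3.84 ± 1.14, n = 6) and GF morphine (3.59 ± 0.981, n = 5). Each neighbouring pair in this order overlapped, Abx saline and GF saline included.

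GF saline replicate 1, the GF library sequenced as deeply as the conventional ones, had 54.4 CPM of Ide and 2.97 CPM of Fgfbp3, both near or inside the range of the shallower GF libraries. For these genes the low GF level was therefore also present at conventional depth in 1 library. In 9 other settings, covariates for the cortical-type and hypothalamic markers and offsets for GC content and length among them, the log2 fold change of Ide ran from -0.94 to -0.65 under saline and from -0.90 to -0.72 under morphine, and that of Fgfbp3 from -0.91 to -0.68 and from -1.08 to -0.96. Each of these values was called.

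**Figure D2:**
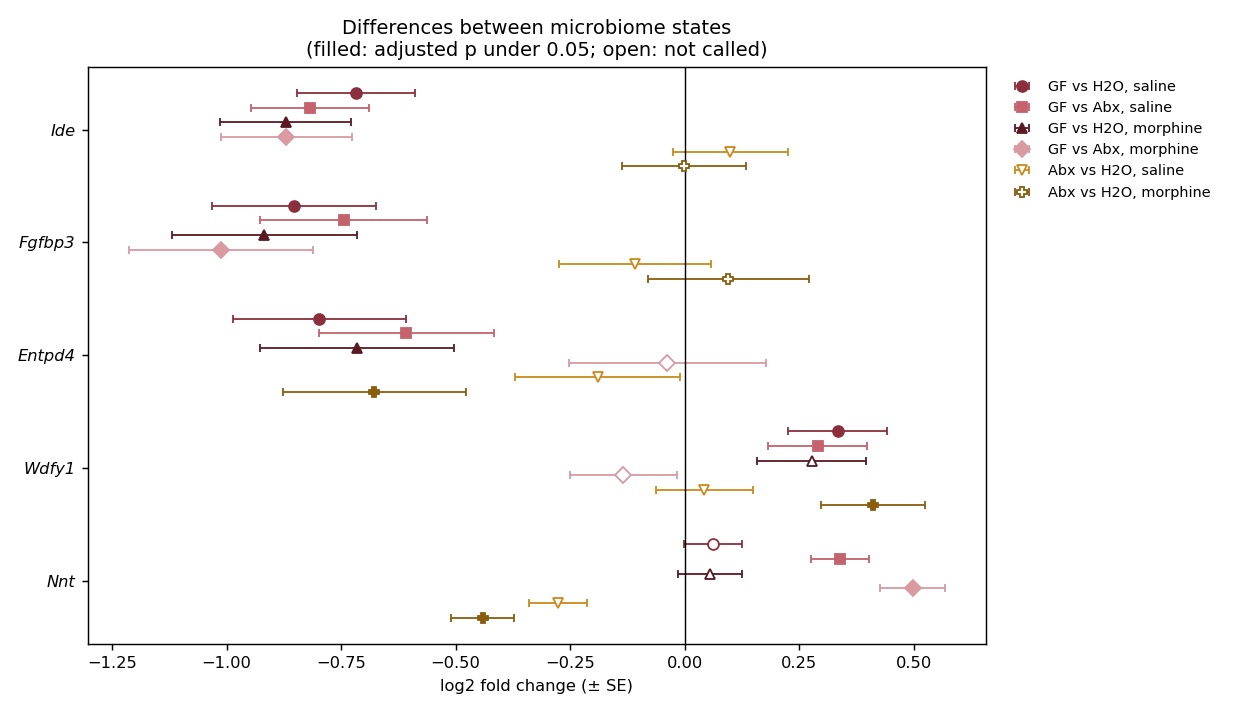
Fitted log2 fold change ± SE of the 5 genes (rows) for GF against H2O, GF against Abx and Abx against H2O mice under each treatment, with filled symbols where the adjusted p was under 0.05. Ide and Fgfbp3 are filled and between -0.72 and -1.01 in the 4 GF contrasts and open near 0 for antibiotics, while Nnt is filled in both contrasts of GF with Abx and in Abx against H2O under morphine.

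Because Ide and Fgfbp3 share a chromosome, the genes beside them were examined next. In the order of the RefSeq annotation (GRCm38.p6) and among tested genes, the stretch reads Hectd2, Ppp1r3c, Tnks2, Fgfbp3, Btaf1, Cpeb3, March5, 4931408D14Rik, Ide, Kif11, Hhex and Exoc6. The lower level in GF mice did not run through the whole stretch. Btaf1, a TATA-binding-protein remodeler, differed by 0.15 ± 0.12 (log2, SE) under saline and 0.05 ± 0.13 under morphine, and March5, a mitochondrial ubiquitin ligase, by 0.12 ± 0.07 and 0.11 ± 0.08, none of them called. Cpeb3, an RNA-binding translation regulator, was higher in GF saline mice by 0.35 ± 0.08 (adjusted p = 0.00101) and was not called under morphine at -0.09 ± 0.09. Exoc6, an exocyst subunit, was lower by 0.32 and 0.58 on the log2 scale under saline and morphine, whereas Hectd2, a ubiquitin ligase, was higher by 0.86 and 0.59. Ppp1r3c, a glycogen-targeting phosphatase subunit, was higher by 0.32 and 0.29, and Tnks2, a poly-ADP-ribose polymerase beside Fgfbp3, was higher by 0.31 ± 0.08 (SE) under saline and was not called under morphine at -0.00 ± 0.09. Kif11 and Hhex were not called in either treatment.

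The long non-coding RNA 4931408D14Rik showed the largest difference of these 12 genes. It lies beyond the 3′ end of Ide without overlapping it, and whether the counting used strand is not given in the sources used here, so reads that run past the end of Ide and reads of this RNA cannot be told apart. Its counts were few, from 0 to 7 reads in GF and from 4 to 57 reads in conventional libraries. Every GF count was below the minimum count of the filter for tested genes. This RNA was therefore tested only because its conventional levels were higher. Its place as the largest difference, and its adjusted p, are thus partly set by the filter. The level was 1.001 to 2.74 CPM in H2O saline, 1.11 to 3.26 in Abx saline and 0.141 to 0.472 in GF saline. Under morphine it measured 0.42, 2.54, 2.09, 1.13 and 2.65 CPM in H2O mice, 2.43, 3.40, 3.80, 2.02 and 4.10 in Abx mice and 0.28, 0.88, 0.57, 0.62 and 0 in GF mice. The lowest conventional library was again H2O morphine replicate 2, with 4 reads. The log2 fold change of GF from conventional was -2.42 ± 0.42 (SE, adjusted p = 6.39e-05) under saline and -2.29 ± 0.44 (SE, adjusted p = 0.000545) under morphine.

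**Figure D3:**
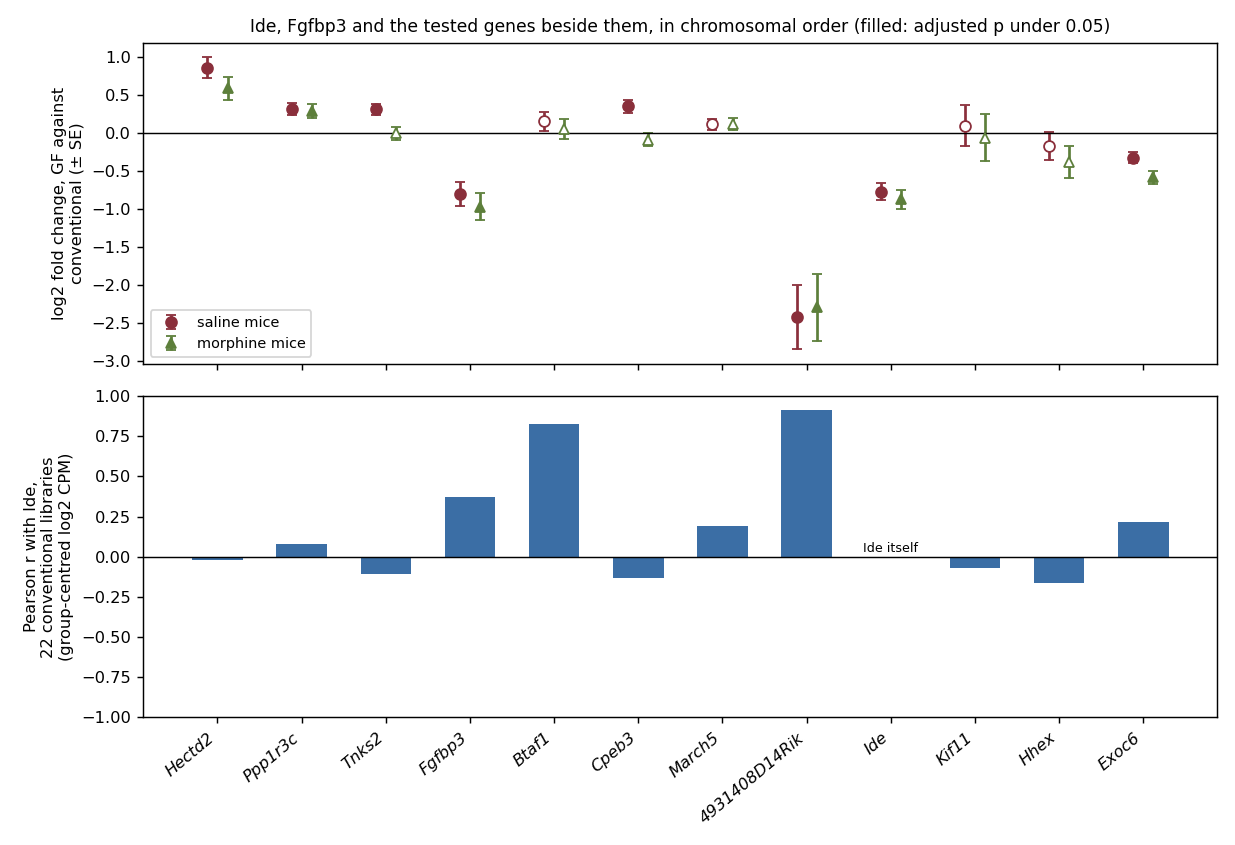
Upper panel, log2 fold change ± SE of GF against conventional mice for Ide, Fgfbp3 and the 10 tested genes beside them, in chromosomal order with even spacing (filled where adjusted p was under 0.05). Lower panel, Pearson r of each gene with Ide over the 22 conventional libraries: 4931408D14Rik (0.91) and Btaf1 (0.83) stand above the other bars.

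Among the conventional mice, the level of Ide moved with certain of these neighbours from mouse to mouse. This was examined after the levels had been seen, on log2 CPM centred on each group's mean, with 40 relations (Ide and Fgfbp3 with each of 10 neighbours, in conventional and in GF libraries) adjusted together and permutation within groups. Ide and 4931408D14Rik had Pearson's r = 0.91 (permutation p = 1e-05, the smallest that 100000 permutations can give, adjusted p = 0.0004) and Spearman's rho = 0.85 (adjusted p = 0.0024) over 22 libraries. Without the 2 libraries farthest from the median of Ide, r was 0.85. Ide and Btaf1 had r = 0.83 (permutation adjusted p = 0.0008), rho = 0.73 (permutation adjusted p = 0.0146), and r = 0.71 without the 2 farthest libraries. None of the other 8 neighbours passed with Ide in conventional mice, where r ran from -0.16 for Hhex to 0.22 for Exoc6. Cpeb3 and March5, which lie between Btaf1 and 4931408D14Rik, had r of -0.13 and 0.19.

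In the 11 GF libraries the same relations gave r = 0.21 for 4931408D14Rik and r = -0.35 for Btaf1, neither of which passed the permutation test after adjustment. Ide varied little there (within-group SD of log2 CPM 0.0654), and 4931408D14Rik had few reads. The GF libraries therefore cannot show whether these relations hold in GF mice. Fgfbp3, with its low counts, passed with none of the neighbours. With Ide it had r = 0.37 over the conventional libraries (permutation p = 0.106, adjusted p = 0.654 over the 20 relations among the 5 genes, rho = 0.37, r = 0.36 without the 2 farthest). In GF libraries it had r = -0.67 with Ide (permutation p = 0.0413, adjusted p = 0.413, r = -0.53 without the 2 farthest), which fails the correction. No relation between Ide and Fgfbp3 passed the test in either set of mice. Given the low counts of Fgfbp3 and the small spread of Ide in GF mice, these tests cannot show whether the genes vary together.

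**Figure D4:**
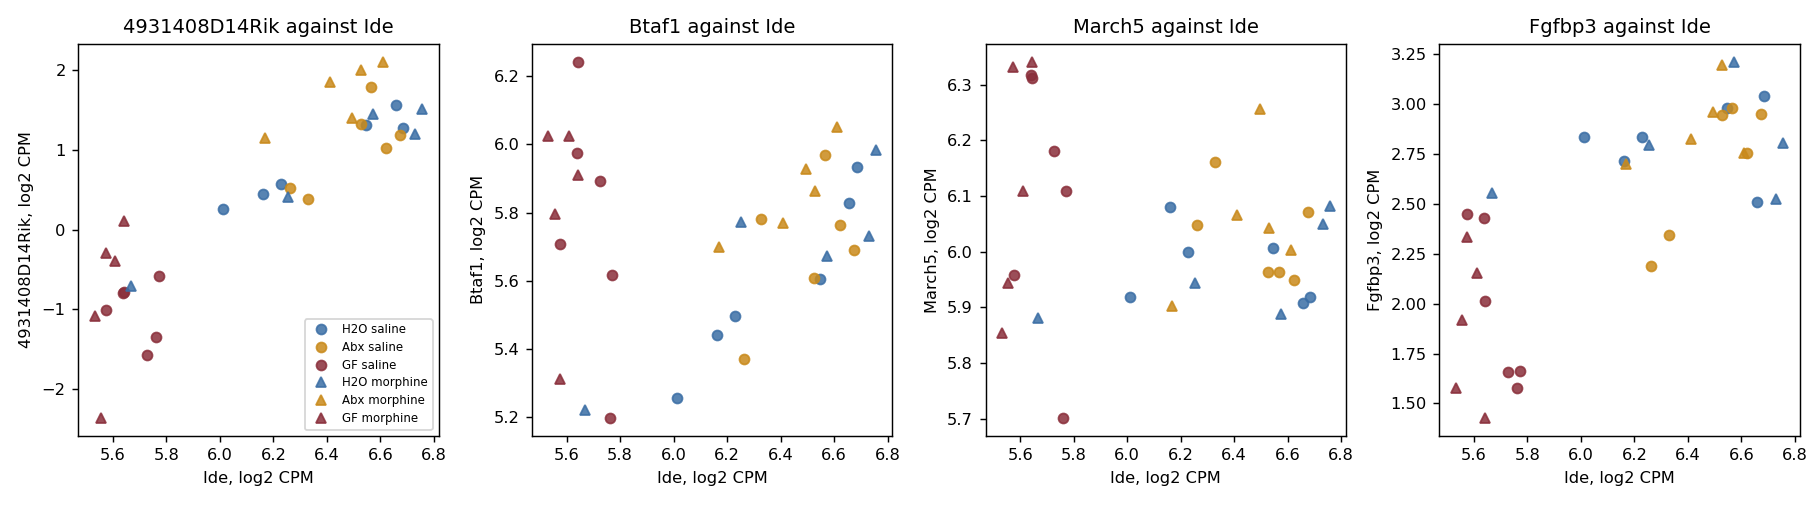
Log2 CPM of 4931408D14Rik, Btaf1, March5 and Fgfbp3 (vertical axes) against log2 CPM of Ide in all 33 libraries (blue H2O, ochre Abx, dark red GF, circles saline, triangles morphine). Conventional libraries rise together with Ide for 4931408D14Rik (r = 0.91) and Btaf1 (r = 0.83), and show no such slope for March5 (r = 0.19). In the 4931408D14Rik panel H2O morphine replicate 2 lies at the lower left beside the GF libraries. The r values are of log2 CPM centred on group means in conventional libraries, while the points are not centred.

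Over all 33 libraries the tested genes most like Ide by Pearson r of log2 CPM were 4931408D14Rik (0.90), the homeobox factor Pax6 (0.82) and the corepressor Rcor2 (0.82). For Fgfbp3 they were Hnrnpdl (0.82), Fastk (0.81) and Ica1 (0.80). These genes were picked for their likeness, the points share depth and the GF contrast, and the values are a description.

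The counts of Entpd4 are uncertain, because the mouse reference holds a second gene, Entpd4b, whose sequence is the same. The longest GENCODE M21 transcripts of the genes, Entpd4-206 and Entpd4b-204, are both 3589 bases long and differ at 0 positions. The stretch of transcript exon 3 below is shown because a read from it fits both places, and a differing base would be in capitals (GRCm38, plus strand, chr14:69349073-69349192 for Entpd4 and chr14:69567323-69567442 for Entpd4b).
Entpd4: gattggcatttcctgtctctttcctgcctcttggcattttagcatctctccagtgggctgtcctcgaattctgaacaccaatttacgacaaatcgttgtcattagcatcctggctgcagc
Entpd4b: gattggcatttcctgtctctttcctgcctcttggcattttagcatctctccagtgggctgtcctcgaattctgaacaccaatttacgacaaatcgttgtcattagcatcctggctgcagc
The count table lists Entpd4 alone. Reads with more than 1 alignment were tallied apart from genes and made up 9.03% to 19.8% of a library's total, with the highest share in GF morphine replicate 5.

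With that limit, Entpd4 was lower in GF than in conventional mice under saline. It ran from 17.8 to 26.1 CPM in H2O saline with a median of 19.5, from 11.5 to 22.6 in Abx saline with a median of 20.0, and from 9.37 to 16.2 in GF saline with a median of 11.6. Abx saline replicate 6, at 11.5 CPM, was the conventional library inside the GF range. The log2 fold change was -0.70 ± 0.17 (SE, adjusted p = 0.00171).

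Under morphine Entpd4 separated the conventional mice by antibiotics instead. The values were 22.6, 21.3, 18.4, 16.3 and 15.6 CPM in H2O mice, 9.47, 10.98, 12.35, 11.02 and 14.80 in Abx mice and 12.8, 13.2, 17.4, 8.6 and 4.6 in GF mice. All 5 Abx libraries were below all 5 H2O libraries, as were 7.17% of tested genes, and GF libraries spanned both. Abx differed from H2O by -0.68 ± 0.20 (log2, SE, adjusted p = 0.0256) and GF from H2O by -0.72 ± 0.21 (SE, adjusted p = 0.0404), while GF differed from Abx by -0.04 ± 0.22 (SE, adjusted p = 0.913). The joint difference of GF from conventional mice, -0.38 ± 0.19 (SE, adjusted p = 0.149), was not called. It was called at -0.59 without GF morphine replicate 3 (adjusted p = 0.0454), and the call against H2O was lost in 6 of 10 fits that each left out 1 library (adjusted p up to 0.118).

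Group means of Entpd4 ordered as H2O saline (21.1 ± 3.79 CPM, SD, n = 6), H2O morphine (18.8 ± 3.04, n = 5), Abx saline (18.5 ± 3.96, n = 6), GF saline (11.97 ± 2.31, n = 6), Abx morphine (11.7 ± 2.00, n = 5) and GF morphine (11.3 ± 4.89, n = 5), and each neighbouring pair overlapped. The genes most like it over the 33 libraries were Csl (r = 0.86), Aldoart1 (r = 0.83) and Gm6498 (r = 0.83), the last of which RefSeq lists as a transcribed pseudogene. Of the 6 tested genes beside it, Chmp7 and R3hcc1 were lower in GF saline mice and the others were not called.

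Wdfy1 was higher in GF mice under saline, with a wide spread. Its level ran from 13.2 to 16.9 CPM in H2O saline with a median of 14.6, from 13.9 to 19.2 in Abx saline with a median of 14.8, and from 13.7 to 24.4 in GF saline with a median of 19.2. GF saline replicate 1, the deeply sequenced one, was the lowest GF library at 13.7 CPM and lay inside the conventional range. The log2 fold change was 0.31 ± 0.09 (SE, adjusted p = 0.00944). Without GF saline replicate 6, the highest library at 24.4 CPM, it fell to 0.23 (adjusted p = 0.0678) and was not called.

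With marker levels of cortical-type and hypothalamic tissue as covariates, the Wdfy1 difference under saline was 0.20 with an adjusted p of 0.142. Under morphine it measured 17.2, 15.6, 13.99, 15.9 and 13.8 CPM in H2O mice, 21.8, 17.0, 18.8, 22.7 and 21.3 in Abx mice and 15.5, 16.9, 21.3, 19.4 and 19.7 in GF mice. Here the Abx mice were highest and GF mice lay within their range or just below it. GF against conventional gave 0.07 ± 0.10 (SE, adjusted p = 0.653), and Abx against H2O 0.41 ± 0.11 (SE, adjusted p = 0.0164). Group means ordered as Abx morphine (20.3 ± 2.34 CPM, SD, n = 5), GF saline (19.1 ± 3.38, n = 6), GF morphine (18.5 ± 2.33, n = 5), Abx saline (15.5 ± 2.05, n = 6), H2O morphine (15.3 ± 1.42, n = 5) and H2O saline (15.1 ± 1.41, n = 6), with overlap between each neighbouring pair. Most like it were Zdhhc20 (r = 0.86), Fam199x (r = 0.82) and Rnpc3 (r = 0.81), and of the 6 genes beside it Cul3 was higher in GF saline mice.

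Nnt was present in every library, at 121 to 380 reads. GENCODE M21 holds 2 records named Nnt on nearly the same span of chromosome 13, and the count table holds 1. Under saline it ran from 20.9 to 24.8 CPM in H2O mice with a median of 23.1, from 16.9 to 21.4 in Abx mice with a median of 18.8, and from 21.6 to 25.7 in GF mice with a median of 24.4. GF and H2O mice overlapped almost throughout, and 5 of the 6 Abx libraries were below every H2O library. Under morphine the values were 21.6, 21.8, 21.6, 21.6 and 21.1 CPM in H2O mice, 16.8, 15.5, 14.01, 15.7 and 17.5 in Abx mice and 23.5, 21.9, 21.98, 23.7 and 21.0 in GF mice, so that each Abx library was below each of the other 10. All Abx were below all H2O morphine libraries for 7.17% of tested genes, and the share also below all GF libraries was not computed.

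Against conventional mice as one set, Nnt was called higher in GF mice, by 0.20 ± 0.05 (log2, SE, adjusted p = 0.00502) under saline and 0.28 ± 0.06 (SE, adjusted p = 0.00202) under morphine. Split by the conventional group, the difference was against Abx mice, at 0.34 ± 0.06 (SE, adjusted p = 0.000339) and 0.50 ± 0.07 (SE, adjusted p = 7.05e-06). Against H2O mice it was 0.06 ± 0.06 (SE, adjusted p = 0.471) under saline and 0.06 ± 0.07 (SE, adjusted p = 0.658) under morphine. Abx against H2O gave -0.28 ± 0.06 (SE, adjusted p = 0.0724, rank 22 of 14602) under saline and -0.44 ± 0.07 (SE, adjusted p = 7.30e-05, rank 63) under morphine. All these mice of the Abx and H2O groups came from the same supplier.

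Group means of Nnt ordered as GF saline (24.1 ± 1.64 CPM, SD, n = 6), H2O saline (23.1 ± 1.61, n = 6), GF morphine (22.4 ± 1.16, n = 5), H2O morphine (21.6 ± 0.273, n = 5), Abx saline (19.1 ± 1.60, n = 6) and Abx morphine (15.9 ± 1.32, n = 5). Each neighbouring pair overlapped, H2O morphine and Abx saline by the single library at 21.4 CPM. The genes most like Nnt were Serpinh1, a collagen chaperone (r = 0.86), Hexa, a lysosomal hexosaminidase (r = 0.86), and Lman2l (r = 0.85). Microglial markers were lower in Abx than in H2O mice too. Their summed CPM was 235 to 273 in Abx and 302 to 345 in H2O mice under morphine, and 277 to 339 and 354 to 370 under saline. That of endothelial markers was 132 to 150 in Abx and 153 to 164 in H2O mice under morphine, and overlapped under saline. The part of these shifts in the Nnt result was not tested.

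Counted over the list, 5 of the 5 genes were called between GF and conventional mice under saline, 3 lower and 2 higher, where 37% of all tested genes were called. Under morphine 3 of 5 were called (Ide and Fgfbp3 lower, Nnt higher) against 21% of all genes. The GF groups thus differed from conventional mice at a large share of all genes, and a call for a single gene has to be read against that share. Because the 5 genes were chosen with earlier results of these data known, the counts are a description. Against H2O mice alone, 4 of 5 were called under saline (all but Nnt) beside 32.9% of genes, and Ide, Fgfbp3 and Entpd4 under morphine beside 5.78%. Against Abx mice alone, 5 of 5 were called under saline beside 27.3% of genes, and Ide, Fgfbp3 and Nnt under morphine beside 28.1%. In Abx against H2O edgeR called 0 of the 5 under saline, where 1 (Nnt) had an unadjusted p under 0.05, DESeq2 called 1 and 0.116% of all genes were called. Under morphine 3 were called (Entpd4 and Nnt lower, Wdfy1 higher), beside 10.4% of all genes, and Ide and Fgfbp3 were not.

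Between morphine and saline, calls among the 5 genes were made in the Abx mice. In H2O and in GF mice edgeR called 0 of the 5, 0 had an unadjusted p under 0.05 and DESeq2 called 0, while 0% and 0.00685% of all genes were called. In Abx mice Entpd4 was lower by 0.65 ± 0.19 (log2, SE, adjusted p = 0.0435), Nnt was lower by 0.26 ± 0.07 (SE, adjusted p = 0.0183) and Wdfy1 was higher by 0.39 ± 0.11 (SE, adjusted p = 0.0327), beside 5.37% of all genes. These calls depended on single libraries, with 0 of the 3 kept when Abx saline replicate 3 or Abx morphine replicate 3 was left out. Whether antibiotics changed the response to morphine was tested as an interaction, a comparison added after the levels had been seen, and edgeR and DESeq2 each called 0 of the 5 (Wdfy1 0.37 ± 0.16, SE, adjusted p = 0.526, the 1 gene with an unadjusted p under 0.05), where 0.11% of all genes were called. The difference of GF from conventional mice differed by treatment at the threshold for 0 of the 5 by edgeR and by DESeq2, with 0 at an unadjusted p under 0.05 and 1.93% of all genes called, and with Ide at -0.10 ± 0.17 (SE, adjusted p = 0.79) and Entpd4 at 0.33 ± 0.25 (SE, adjusted p = 0.499).

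Of 7 other listed genes that vary among C57BL/6 substrains, 5 were tested. Gabra2, a GABA-A receptor subunit with an intronic deletion in C57BL/6J, was higher in GF mice by 0.68 ± 0.11 (log2, SE, adjusted p = 3.02e-05) under saline and 0.77 ± 0.12 (SE, adjusted p = 7.27e-05) under morphine. Split by the conventional group, the difference under morphine was 1.14 ± 0.15 (SE) against Abx mice and 0.41 ± 0.14 (SE, adjusted p = 0.0837, not called) against H2O mice, and under saline 0.79 ± 0.13 and 0.57 ± 0.13, both called. Its mean level was 37.7 CPM in H2O saline, 32.2 in Abx saline and 55.8 in GF saline, and it was also lower in Abx than in H2O mice under morphine. Crb1 (0.42 ± 0.18 under saline, adjusted p = 0.0596), Cyfip2 and Dock2 were not called in either treatment.

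Genes that work beside the 5 were counted in lists that were also chosen with earlier results known. The counts are of GF against conventional mice under saline, where 37% of all tested genes were called in either direction. Among 12 peptidases of small peptides, the company of Ide, 5 were higher and 3 lower with a median log2 fold change of 0.01. Lnpep, the membrane-bound insulin-regulated aminopeptidase, was higher by 0.88 ± 0.14 (SE), and Thop1, a cytosolic oligopeptidase, was lower by 0.25. Ace, Ece2, Npepps and Nrd1 were the other higher members, and Anpep and Ece1 the other lower ones. Of the 7 tested FGF partners, the receptor Fgfr1 was higher by 0.21 and Fgfr3 was lower by 0.27. Of 8 tested nucleotidases, Entpd1, which degrades extracellular ATP on microglia and vessels, was higher by 0.42 ± 0.09 (SE).

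Of 11 endosomal FYVE proteins and Toll-like receptor partners, the company of Wdfy1, 8 were higher and 0 lower under saline, beside 37% of all genes called, with a median of 0.25 beside 0.0038 over all genes. Tlr4, the endotoxin receptor, was higher in GF than in conventional mice by 1.30 ± 0.24 (SE). Its mean was 0.676 CPM in H2O saline and 2.01 CPM in GF saline, and GF against H2O alone gave 1.54 ± 0.29 (SE). With so low a level in H2O mice, Tlr4 may have passed the filter through its higher GF level. Its calls are therefore a description. The other higher members were Tlr3, Eea1, Rab5a, Wdfy2, Wdfy3, Zfyve16 and Zfyve9. Under morphine 1 member, Tlr4, was higher and 1, Eea1, was lower, beside 21% of all genes called, a share near that of the list. Of 13 mitochondrial genes of NADPH supply and peroxide handling, the company of Nnt, 5 were lower (Gsr, Idh2, Me3, Prdx5 and Txn2, between -0.34 and -0.13) and 2 higher (Nadk2 and Sod2), with a median of -0.13. Under saline 37% of all genes were called. Under morphine Gsr and Me3 were lower and 0 were higher, a share below the 21% of all genes called.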

How the data were processed

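PolyA RNA of 33 nucleus accumbens samples was sequenced after SMARTer cDNA synthesis, per the labels' protocols. The deposited main table holds read counts per gene, not normalized, and FastQC, STAR 2.4.0 and edgeR are named in the submitters' processing notes. No source used here names the build, the annotation, the strand setting or the counting program. A second deposited table holds normalised signal for 10871 genes, which equals the authors' counts divided by 1 factor per library (largest relative deviation 5.11e-15) and served to restore 19 of 27 gene names that a spreadsheet had turned into dates. The other 8 such rows were left out, and 5 rows that tally reads outside genes stayed out of library sizes.

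Groups came from the labels. Genes were filtered by filterByExpr at a minimum count of 10, and all 14602 that passed were fitted together with edgeR 4.0.16 (R 4.3.3, TMM factors, 6 group means, 27 residual degrees of freedom, biological coefficient of variation 0.128), in 12 fixed comparisons and 1 added after the data were seen. Adjusted p-values are Benjamini-Hochberg over all tested genes, two-sided. Depth of 4.87 to 15.3 M reads per library sets the counting error. Alternatives were DESeq2 1.42.0, limma 3.58.1 (voom with sample quality weights), other size factors, no filter, only the groups compared, a replicate block, marker covariates, GC content and length offsets (99.3% of tested genes annotated) and leaving out each library. The fitting script was checked on simulated counts. The 5 genes and the gene lists were chosen with earlier results of these data known. The text names the 5 genes, for each the 3 tested genes most correlated over all libraries, the list members past the threshold under saline (or the smallest p), and 3 tested genes on either side by RefSeq order. The result of 1 listed gene is not reported here.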

Additional observations from a re-analysis of the deposited data

Results flagged for a closer look

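Of 30 combinations of gene and group, 1 held a library set apart from the others of its group. Nnt in H2O morphine replicate 6 was the lowest of the 5 libraries at 21.1 CPM, the other 4 lying between 21.6 and 21.8 CPM. The whole range of this group is narrow, and the gap to the nearest library is small in CPM. Chance alone sets apart about 1 in 20 groups.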

How the results depend on the processing

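Of 1515 values recomputed for the 5 genes, 1409 kept their direction and their side of the threshold, 55 lost a call, 7 gained one and 44 changed sign, 0 of them with a call on either side. Ide and Fgfbp3 were called lower in GF mice in each of the 6 GF comparisons under all 9 settings and with each library left out. The number of the 5 genes called in Abx against H2O, saline, was 1 (Nnt) instead of 0 under DESeq2, limma voom, dissection covariates and GC content and length offsets, and 0 to 1 with 1 library left out. It was 1 without H2O saline replicate 3 or Abx saline replicate 3. In GF against Abx, saline, it was 3 instead of 5 with GC content and length offsets, where Entpd4 had an adjusted p of 0.0534 and Wdfy1 was lost as well. Morphine against saline in Abx mice gave 0 to 3 with 1 library left out, 0 without Abx saline replicate 3 or Abx morphine replicate 3 and 1 without Abx saline replicates 1 or 5 or Abx morphine replicates 1 or 4. The cause was not tested.

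Among values that were not called, the log2 fold change of Ide in Abx against H2O, morphine, changed sign to 0.0046 under DESeq2, 0.047 under limma voom, 0.0031 with RLE size factors, 0.0058 with upper-quartile factors, 0.000638 with no filter, 0.015 with the replicate block and 0.0024 with GC content and length offsets, and ran from -0.135 to 0.0866 with 1 library left out. Ide in Morphine against saline, H2O, was -0.052 under limma voom and -0.057 with GC content and length offsets, and ran from -0.041 to 0.185 with 1 library left out. For the Difference of GF against conventional, Ide was 0.040 with these offsets. Dissection covariates gave Wdfy1 -0.024 in GF against conventional, morphine, and -0.062 in Morphine against saline, H2O, and gave Entpd4 0.018 in GF against Abx, morphine. GC content and length offsets gave Entpd4 0.015 in GF against Abx, morphine, and gave, for Morphine against saline, Fgfbp3 0.027 and Wdfy1 -0.057 in H2O mice and Wdfy1 0.013 in GF mice. With 1 library left out, Entpd4 in GF against Abx, morphine, ran from -0.248 to 0.149, and Wdfy1 in Abx against H2O, saline, from -0.025 to 0.078. In Morphine against saline the ranges were -0.026 to 0.058 for Wdfy1 and -0.156 to 0.035 for Fgfbp3 in H2O mice, -0.098 to 0.018 for Ide in Abx mice, and -0.290 to 0.107 for Entpd4, -0.216 to 0.017 for Fgfbp3 and -0.127 to 0.050 for Wdfy1 in GF mice.

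The replicate numbers do not pair the samples: deviations of same-numbered samples had a mean correlation of -0.000700 over 66 pairs of samples from different groups, from -0.473 to 0.462, and the replicate block changed no count of calls by over 1.5 times. Low counts limit Fgfbp3 and 4931408D14Rik most.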
